A study of Mus musculus with 2 samples.

Results

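Cell adhesion genes and the transcription factors that switch epithelial cells to a mesenchymal state were examined for NANOG peaks in mouse embryonic stem cells. The 8 genes were taken by name, out of 21489 protein-coding genes. They are the adhesion genes Cdh1, Cdh2 and Epcam and the repressors of the epithelial state Snai1, Snai2, Zeb1, Zeb2 and Twist1. For each gene, every summit of the authors' optimal peak set was taken that lay in the gene body or within 50 kb of the transcription start site (TSS). The assay was chromatin immunoprecipitation of NANOG with sequencing in E14TG2a.4, an embryonic stem cell line of male sex from mouse strain 129/Ola, with an embryonic age of 3.5 days in the labels. There was 1 group, immunoprecipitated with an antibody to NANOG in 2 biological replicates of that line, with no treatment or mutation in the labels. Embryonic stem cell markers could not be checked, because the files hold peaks of 1 factor and no expression values. The peak lists carry no read totals, so depth is unknown.

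NANOG is a homeodomain protein that helps to hold embryonic stem cells in the pluripotent state. Mouse embryonic stem cells grow as epithelial colonies held together by E-cadherin, the product of Cdh1. At gastrulation, cells that leave the epiblast lose E-cadherin, gain N-cadherin from Cdh2 and express SNAI1, a change known as epithelial-mesenchymal transition (EMT). The snail and ZEB proteins are zinc-finger repressors that bind E-box DNA words, and TWIST1 is a basic helix-loop-helix factor.

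Of the 8 genes, 6 had a NANOG peak, against 48.4% of all protein-coding genes. Cdh1 and Cdh2 had 5 summits each, Zeb2 had 4, Snai1 had 3, Epcam had 2 and Zeb1 had 1. Snai2 and Twist1 had none. Genes with 3 or more summits numbered 4 of the 8, against 10.8% of all genes. The 6 genes also had a peak of the stricter conservative set, against 33.7% of all genes. The genes were chosen with earlier results of these data known, so these counts were not tested. Gene size differs among them: the window of Cdh2 spanned 270.4 kb, that of Zeb1 234.1 kb, that of Zeb2 183.9 kb and that of Cdh1 116.9 kb, while the other 4 genes had the smallest possible window, 100 kb. Among genes with windows of 150 to 300 kb, 70.4% had a peak and the mean was 1.64 summits. Among the 17002 genes with the smallest windows, the size class of Epcam, Snai1, Snai2 and Twist1, 43.8% had one and the mean was 0.747. Per 100 kb of window, Cdh1 had 4.28 summits, Snai1 3.00, Zeb2 2.17, Epcam 2.00, Cdh2 1.85 and Zeb1 0.427, and the mean over all genes was 0.760.

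**Figure D1:**
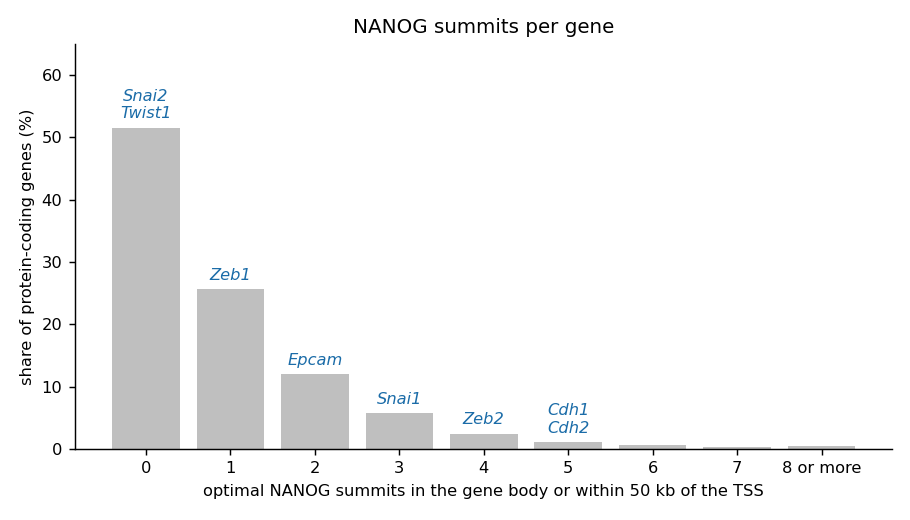
Share of 21489 protein-coding genes (y axis, percent) by the number of optimal NANOG summits in the gene body or within 50 kb of the TSS (x axis), with the 8 genes named above their bar. Snai2 and Twist1 stand with the 51.6% of genes that had no summit, and Cdh1 and Cdh2 with the 1.12% that had 5.

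Sequences of the peaks at the loci on which the results turn are shown from the mm9 genome, the build of the peak lists with matching reference sequence. Each is the central stretch of 300 bases of a series-level mm9 peak, plus strand. Capitals mark 7 words searched on both strands: TAATGG (NANOG-type homeodomain), CATTGT (SOX), ATGCAAA (OCT), AAGGTCA (ESRRB), GGGTGTG (KLF), CAGGTG (E-box of the snail and ZEB type) and CATATG (E-box of the TWIST type). They are the strongest peak upstream of Zeb2 (chr2:45014015-45014314), the peak inside Snai1 (chr2:167365607-167365906), the one upstream of Snai1 (chr2:167355564-167355863) and the strongest in Cdh1 (chr8:109178256-109178555).
Zeb2, 41.3 kb upstream: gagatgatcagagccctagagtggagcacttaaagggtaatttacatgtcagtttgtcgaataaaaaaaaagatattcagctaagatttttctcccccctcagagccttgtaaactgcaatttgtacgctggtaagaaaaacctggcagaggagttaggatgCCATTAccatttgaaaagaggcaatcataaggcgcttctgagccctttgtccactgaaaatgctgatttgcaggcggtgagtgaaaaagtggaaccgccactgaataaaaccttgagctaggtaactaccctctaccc
Snai1, 2.06 kb downstream: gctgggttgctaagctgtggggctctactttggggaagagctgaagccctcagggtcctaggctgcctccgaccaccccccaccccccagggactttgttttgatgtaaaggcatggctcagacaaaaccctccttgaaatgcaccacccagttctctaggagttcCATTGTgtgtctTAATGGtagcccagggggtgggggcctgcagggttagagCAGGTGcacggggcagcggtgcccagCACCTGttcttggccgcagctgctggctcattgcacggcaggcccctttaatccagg
Snai1, 7.98 kb upstream: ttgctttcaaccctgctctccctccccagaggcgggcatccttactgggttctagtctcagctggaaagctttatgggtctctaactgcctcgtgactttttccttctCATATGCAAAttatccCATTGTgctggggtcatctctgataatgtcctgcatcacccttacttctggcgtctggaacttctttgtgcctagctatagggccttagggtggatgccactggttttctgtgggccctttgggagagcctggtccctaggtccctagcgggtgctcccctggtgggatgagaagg
Cdh1, 51.2 kb downstream: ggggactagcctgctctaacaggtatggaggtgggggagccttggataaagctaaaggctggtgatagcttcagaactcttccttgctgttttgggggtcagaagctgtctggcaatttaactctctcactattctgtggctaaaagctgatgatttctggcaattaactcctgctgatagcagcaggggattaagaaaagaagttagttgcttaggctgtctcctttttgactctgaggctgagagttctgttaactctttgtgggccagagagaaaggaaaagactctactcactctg

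The Zeb2 stretch held a NANOG-type word. The Snai1 upstream stretch held an OCT word and a SOX word with 6 bases between them, and its TWIST-type word shared 3 bases with the OCT word. The stretch inside Snai1 held a SOX and a NANOG-type word, 6 bases apart, and 2 snail-type E-boxes 20 bases apart. In the Epcam peak 41.9 kb downstream, which is not shown, a SOX and a NANOG-type word lay 59 bases apart. How often such spacings occur over all peaks was not counted. The Cdh1 stretch held none of the 7 words. These are letter matches and not measured binding sites.

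Cdh1, which encodes E-cadherin, had 5 peaks, and each lay inside the gene. The highest was far downstream of the TSS, at 51.2 kb (mm10 chr8:106654328-106654691), with a signal of 104.2 and rank 2080 of 15891 optimal peaks. The signal is the value per peak that the authors deposited, on a scale that is not stated, and rank 1 is the highest. In the relaxed lists of 300000 regions that the authors made for each replicate before thresholding, this peak ranked 1892 in replicate 1 and 3758 in replicate 2. The other 4 peaks sat closer together, between 7.80 and 18.3 kb downstream, with signals of 25.1, 24.6, 41.2 and 35.2 in order from the TSS. Of these, the peaks at 13.5 kb and 18.3 kb were in the conservative set. The peak at 13.5 kb ranked 9222 in replicate 1 and 3600 in replicate 2. The first 2 peaks, at 7.80 and 12.4 kb, ranked 13877 and 16806 in replicate 1 but only 248608 and 88399 in replicate 2. The start of Tango6 was nearer to the highest peak than that of Cdh1, at 28.6 kb. On mm9 the series-level list had 4 Cdh1 peaks, and their centres lay in introns of Cdh1. That list gives an enrichment ratio per peak, 12.0 at 51.2 kb downstream and 4.03 to 5.03 at the others. The mm9 lists of single replicates had 8 peaks at Cdh1 in replicate 1 and 1 in replicate 2, which lay 13.5 kb downstream with an enrichment of 9.07. Those lists differ in size over the whole genome, with 22082 peaks in replicate 1 and 6618 in replicate 2. The peak at 51.2 kb had an enrichment of 22.9 in replicate 1 and was not in the mm9 list of replicate 2. Its q-value in replicate 1, 0.0024, was the lowest of the 8 there, and the highest was 0.658.

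Cdh2, the N-cadherin gene of chromosome 18, carried all of its 5 peaks deep in the gene body. The nearest to the TSS was 51.9 kb downstream, so none lay in the 50 kb around the start. The highest peak, at 95.6 kb (mm10 chr18:16713610-16713743), had a signal of 106.3, rank 2024, with rank 1875 in replicate 1 and 1992 in replicate 2. The peak at 51.9 kb had a signal of 82.3, with rank 2778 in replicate 1 and 6995 in replicate 2. Both were in the conservative set, as was a weaker peak at 73.3 kb with a signal of 33.5. The replicates parted at the remaining pair, at 139.0 and 143.6 kb, with signals of 27.3 and 34.2. Those ranked 9631 and 8761 in replicate 1 and overlapped no region of the relaxed list of replicate 2. The mm9 series-level list likewise had 5 peaks in introns of Cdh2, with enrichments between 4.87 and 14.6. Replicate 2 alone had 1 of them on mm9, 95.7 kb downstream, with an enrichment of 9.07, and replicate 1 had 6.

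Epcam, which encodes an epithelial cell adhesion molecule, had its strong peaks outside the gene. The peak 41.9 kb downstream of the TSS had a signal of 187.8, rank 648, with rank 588 in replicate 1 and 842 in replicate 2. The peak 28.5 kb downstream (chr17:87664406-87664540) had a signal of 83.0. Its rank was 2529 in replicate 1 and 8082 in replicate 2. On mm9, enrichments of the peak 41.9 kb downstream were 55.0 in replicate 1 and 19.1 in replicate 2. Both peaks were in the conservative set.

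The Epcam promoter held a peak of the conservative set that overlapped no optimal peak (mm10 chr17:87635613-87635976). Its summit lay 0.184 kb upstream of the TSS. The signal was 18.6, rank 9123 of 9431 in the conservative set, and it ranked 16106 in replicate 1 and 20618 in replicate 2. Conservative peaks that overlap no optimal peak numbered 419, or 4.44%. The RefSeq promoter of Epcam (GRCm38.p6 chr17:87635729-87636028, plus strand, 300 bases) is shown because this summit lies in it, at position 67 from its 5′ end.
Epcam promoter: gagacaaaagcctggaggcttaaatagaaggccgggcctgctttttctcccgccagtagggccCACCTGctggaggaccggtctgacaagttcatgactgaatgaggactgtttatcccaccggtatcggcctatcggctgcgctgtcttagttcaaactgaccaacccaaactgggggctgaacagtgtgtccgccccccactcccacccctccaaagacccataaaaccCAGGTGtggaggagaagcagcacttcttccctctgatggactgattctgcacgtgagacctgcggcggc
The only words found were 2 snail-type E-boxes, in capitals, at positions 64 to 69 and 232 to 237. The summit position falls within the first. This word was in 20.2% of 32851 promoters of the same length.

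Snai1, which encodes a zinc-finger repressor of Cdh1, had the optimal peak nearest to a start among the 8 genes. That peak, 2.06 kb downstream of the TSS, lay in the gene body (mm10 chr2:167540076-167540439), with a signal of 79.3, rank 3174, and ranks of 3473 in replicate 1 and 2360 in replicate 2. Another lay 7.99 kb upstream (chr2:167530020-167530383), with a signal of 59.4 and ranks of 6440 in replicate 1 and 2816 in replicate 2. Both were in the conservative set. The third, 31.2 kb upstream inside Rnf114 and nearer to the start of Spata2, had a signal of 22.2. It ranked 29926 in replicate 1 and 5604 in replicate 2 and was outside the conservative set. On mm9, the lists of both single replicates and the series-level list each had 3 Snai1 peaks, and the centre of the one 2.06 kb downstream was in an intron. Its enrichment was 18.9 in replicate 1 and 10.98 in replicate 2, with q-values of 0.0066 and 0.0043. The mm9 peak about 31 kb upstream had q-values of 0.1103 in replicate 1 and 0.2887 in replicate 2. For the one about 8 kb upstream they were 0.0182 and 0.132. Of 21271 genes with an optimal summit on their chromosome, 4.23% had one as near to the TSS as the Snai1 summit 2.06 kb downstream, or nearer.

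Zeb2, which encodes another zinc-finger repressor of Cdh1, had the highest peak of the 8 genes. It lay 41.2 kb upstream of the TSS, outside any protein-coding gene (mm10 chr2:45158368-45158835), with a signal of 196.1 and rank 591. The ranks were 641 in replicate 1 and 557 in replicate 2. On mm9, the peak 41.3 kb upstream had enrichments of 57.9 in replicate 1 and 22.9 in replicate 2. A second Zeb2 peak, 12.7 kb downstream in the gene (chr2:45104524-45104887), had a signal of 75.9 and ranks of 3787 in replicate 1 and 2883 in replicate 2. RefSeq gives Zeb2 other starts inside the gene, and the nearest of them was 5.57 kb from this summit. On mm9 the centre of a peak at 12.7 kb lay in an exon annotated for Zeb2. The remaining pair lay at 79.5 and 92.7 kb, with signals of 29.3 and 21.2. The mm9 lists, for the series and for each replicate, had 2 Zeb2 peaks, 1 about 41 kb upstream and 1 about 13 kb downstream, and none that matched this pair in distance. On mm10, the Zeb2 peak at 79.5 kb was in the conservative set, as were those 41.2 kb upstream and 12.7 kb downstream. The peak at 79.5 kb ranked 13147 in replicate 1 and 17421 in replicate 2. The peak at 92.7 kb was outside that set, ranked 14077 in replicate 1 and overlapped nothing in the relaxed list of replicate 2.

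Zeb1, the paralogue of Zeb2 on chromosome 18, had a single weak peak. It lay 4.64 kb upstream of the TSS (mm10 chr18:5586500-5586863), with a signal of 25.9 and rank 12434. Its rank was 20936 in replicate 1 and 9930 in replicate 2, and it was in the conservative set. On mm9 the series-level list had no Zeb1 peak, and replicate 1 alone had 1, 4.93 kb upstream, with an enrichment of 6.51 and a q-value of 0.1736. The body of Zeb1, of 184.1 kb, held no optimal summit.

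Snai2, the paralogue of Snai1, and Twist1 had no optimal or conservative peak in their windows. The nearest optimal summit lay 148.5 kb upstream of Snai2 (signal 48.1) and 245.7 kb upstream of Twist1 (signal 40.2). A farther nearest summit was found for 22.1% of 21271 genes in the case of Snai2 and for 11.4% in that of Twist1. The median distance over those genes was 58.2 kb. The pooled relaxed list, which holds background, had 10 regions in each window. The highest at Snai2 had a signal of 10.9, rank 82293 of 300000, and the highest at Twist1 had 12.2, rank 54159. Among the mm9 lists, 1 had a peak at Snai2, that of replicate 1 at 40.3 kb downstream with an enrichment of 6.83 and a q-value of 0.595, and none had one at Twist1.

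**Figure D2:**
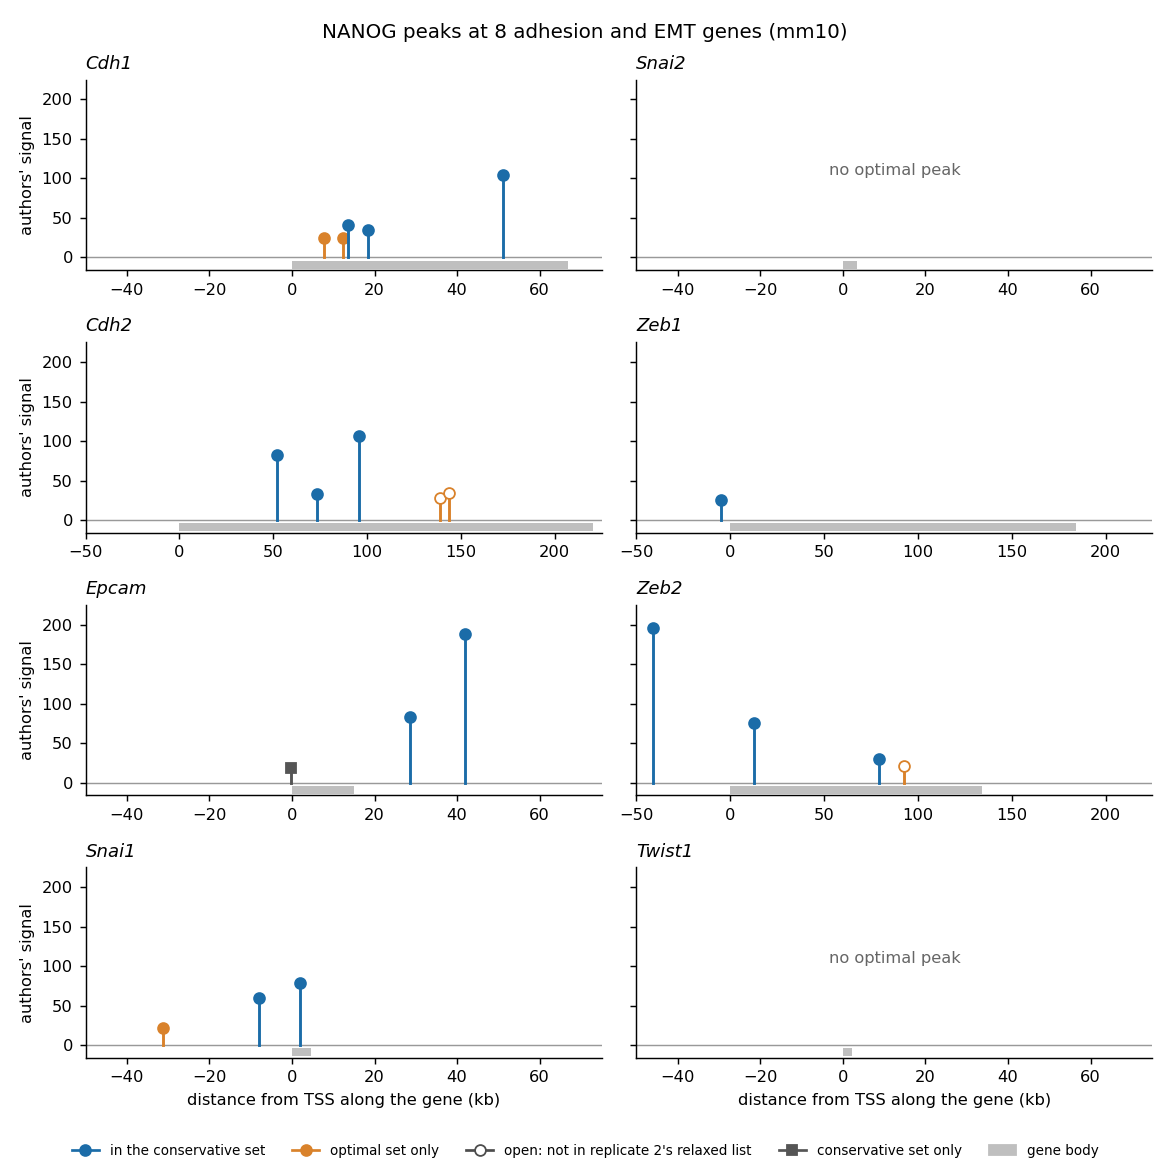
NANOG peaks at the 8 genes on mm10: distance of the summit from the TSS in the direction of the gene (x axis, kb, with a wider range for Cdh2, Zeb1 and Zeb2) against the authors' signal (y axis). Circles are optimal peaks, blue when also in the conservative set and orange otherwise, open when they overlap no region of the relaxed list of replicate 2, the square is the conservative-only peak at the Epcam promoter, and grey bars are gene bodies; the highest peaks are those of Zeb2 (196.1) and Epcam (187.8), away from the start sites.

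Of the 20 summits, none lay within 1 kb of the TSS of its gene. Over all optimal summits on assembled chromosomes, 3.2% were within 1 kb of the protein-coding TSS of any gene. A count of none among 20 is near that share. Within 10 kb lay 4 of the 20, those at Snai1 (2), Zeb1 and Cdh1. Of the 20, 16 lay downstream of the TSS and 14 in the body of the gene. In 16 cases the gene itself had the nearest TSS. The windows reach past 50 kb only through the gene body, so every summit beyond 50 kb lies downstream and in the gene by the rule. No share over all optimal summits stands beside the count within 10 kb or the counts of side, gene body and nearest TSS. The signals ran from 21.2 to 196.1 with a median of 38.2, against a median of 40.2 over all 15891 optimal peaks, and 10 of the 20 exceeded that median. The median of the highest signal per gene was 105.2 for the 6 genes with a peak and 52.0 for all genes with one. A highest value depends on the number of summits per gene, which differs here. Of all 10409 genes with a peak, 5505 had a single summit, and of the 6 only Zeb1 did.

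Replicate support was as follows. Overlap of at least 1 bp with the relaxed list was found for 20 of 20 peaks in replicate 1 and for 17 in replicate 2, against 99.8% and 84.9% of all optimal peaks. Support in both was thus 17 of 20, against 84.7%. In the top 15891 regions of each replicate, as many as the optimal set holds, the counts were 17 of 20 in replicate 1, 13 in replicate 2 and 11 in both, against 86.3%, 54.6% and 50.4% of all optimal peaks. Of the 10 peaks with a signal above the median of all optimal peaks, each was in the top of both replicates, against 82.2% of all optimal peaks above that median. The peak that was in the top of neither was that of Cdh1 at 12.4 kb. Of the 20, 14 were in the conservative set, against 56.7% of all optimal peaks. The 8 peaks with a better rank in replicate 2 were the 3 of Snai1, that of Zeb1, the 2 highest of Zeb2 and those of Cdh1 at 13.5 and 18.3 kb. Another 9 ranked better in replicate 1. The optimal set was derived from these same lists, so part of this overlap is built in.

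**Figure D3:**
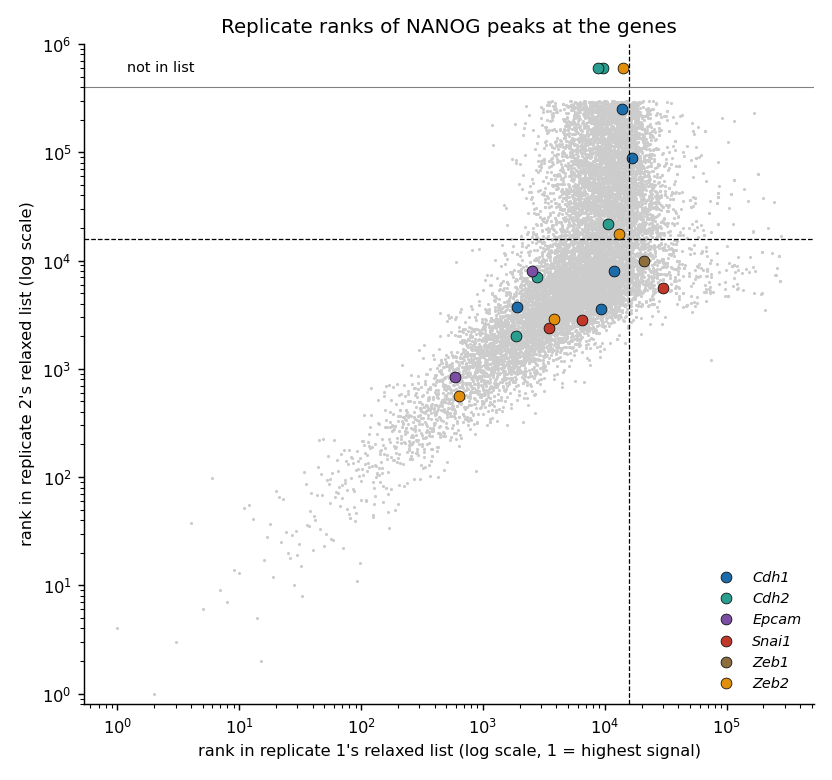
Rank of each peak in the relaxed list of replicate 1 (x axis) and of replicate 2 (y axis), both on log scales with 1 as the highest signal: coloured points are the peaks at the 6 genes, grey points all optimal peaks found in both lists, and dashed lines mark rank 15891. The 3 points above the grey line, 2 of Cdh2 and 1 of Zeb2, are in no region of the list of replicate 2.

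DNA words were counted over the 16 mm9 series-level peaks at these genes, as a description. The SOX word CATTGT was in 11 of the 16 whole peaks, against 52.2% of all 13341 mm9 series-level peaks, and in 8 of the central stretches of 300 bp, against 31.5%. The NANOG-type word TAATGG was in 10 whole peaks, against 34.9%, and in 6 central stretches, against 16.1%. The OCT word ATGCAAA was in 5, against 23.9%, and in 4 central stretches, against 12.5%. The ESRRB word AAGGTCA was in 1 whole peak, at Cdh2, against 29.3%, and the KLF word GGGTGTG in 3, against 21.3%. Neither was in a central stretch, where all peaks had 16.9% and 9.92%. The snail-type E-box CAGGTG was in 7 whole peaks, against 53.2%, and in 2 central stretches, against 25.4%. The TWIST-type word CATATG was in 4 whole peaks, against 16.2%, and in 2 central stretches, against 4.78%. By gene, OCT words were found only in peaks of Cdh2 and Snai1 among these 16. Median GC content was 44.4% in the 16 peaks and 44.6% in all mm9 series-level peaks.

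Other genes of epithelial adhesion and EMT were taken from a list of 47 in 7 groups. Of these, 32 had a NANOG peak, or 68.1%, against 48.4% of all protein-coding genes. Other cadherins had a peak in 6 of 6 genes, with windows that ran from 100 to 1235 kb. Over all genes, the share with a peak was 43.8% for the smallest windows, 70.4% for those of 150 to 300 kb and 86.2% above 300 kb. Cdh5, of endothelial junctions, had its highest at a signal of 145.9, 8.07 kb upstream, Cdh6 at 124.2, 36.1 kb upstream, and Cdh13, a cadherin anchored by a lipid, at 105.8, 6.14 kb downstream. Cdh13 had 11 summits in a window of 1235 kb, the widest of the list. Catenins and adherens junction genes had a peak in 5 of 6. Ctnna1 encodes α-catenin, the link from cadherin complexes to actin. It had the highest peak of the whole list at 257.7, 19.3 kb downstream in the gene. Nectin2 at 66.4 and Jup at 60.3 followed in this group. The Jup peak lay nearer to the start of Hap1. It was outside the conservative set and ranked 4261 in replicate 1 and 30155 in replicate 2. Epithelial junction and keratin genes had a peak in 6 of 8, led by Dsp, of desmosomes, at 157.9, 18.0 kb upstream, and by Cldn4, of tight junctions, at 117.5. Cldn4 had 6 summits within a window of 100 kb, all in the conservative set. Krt8 and Krt18, partner keratins, shared 1 peak of signal 66.6.

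Epithelial regulators had a peak in 3 of 6. These were Ovol1 at 162.7, though the start of Snx32 lay nearer, Grhl2 at 113.1 and the splicing regulator Esrp1 at 64.3. Grhl2, a transcription factor of epithelial identity, had 6 summits, each in the conservative set. Other mesenchymal transcription factors had a peak in 5 of 8, with Gsc, a homeobox gene of the gastrula organizer, at 117.5, Tcf4 at 54.3 and Klf8 at 33.7. The peak assigned to Gsc lay 39.8 kb from it and nearer to Serpina3n, and that of Klf8 overlapped no region of the relaxed list of replicate 2. Mesenchymal products had a peak in 4 of 6, with Fn1, the fibronectin gene, at 75.3, Acta2 at 49.2 and Vim, the vimentin gene, at 44.8. TGF-beta signalling had a peak in 3 of 7, with Tgfb2 at 45.2, Tgfbr2 at 37.2 and Tgfb1 at 24.7, whose peak lay nearer to the start of Tmem91. The Tgfbr2 peak ranked 7535 in replicate 1 and 102744 in replicate 2. No peak was found at 15 genes of the list, which are named here although the naming rule did not cover them: Ctnnb1, Cldn7, Tjp1, Ovol2, Esrp2, Elf3, Twist2, Foxc2, Prrx1, S100a4, Mmp2, Tgfbr1, Smad2, Smad3 and Smad4. A conservative summit in the window was found for 22 of the 47, or 46.8%, against 33.7% of all genes. An optimal peak in the conservative set was found for 5 of 6 other cadherins, 2 of 6 catenin and adherens junction genes and 5 of 8 junction and keratin genes. The same held for 3 of 6 epithelial regulators, 2 of 8 other mesenchymal factors, 3 of 6 mesenchymal products and 1 of 7 TGF-beta genes. On mm9, 22 of the 47 had a series-level peak, or 46.8%, against 45.2% of all genes, so the list stood near the background there. The difference between groups was not tested.

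**Figure D4:**
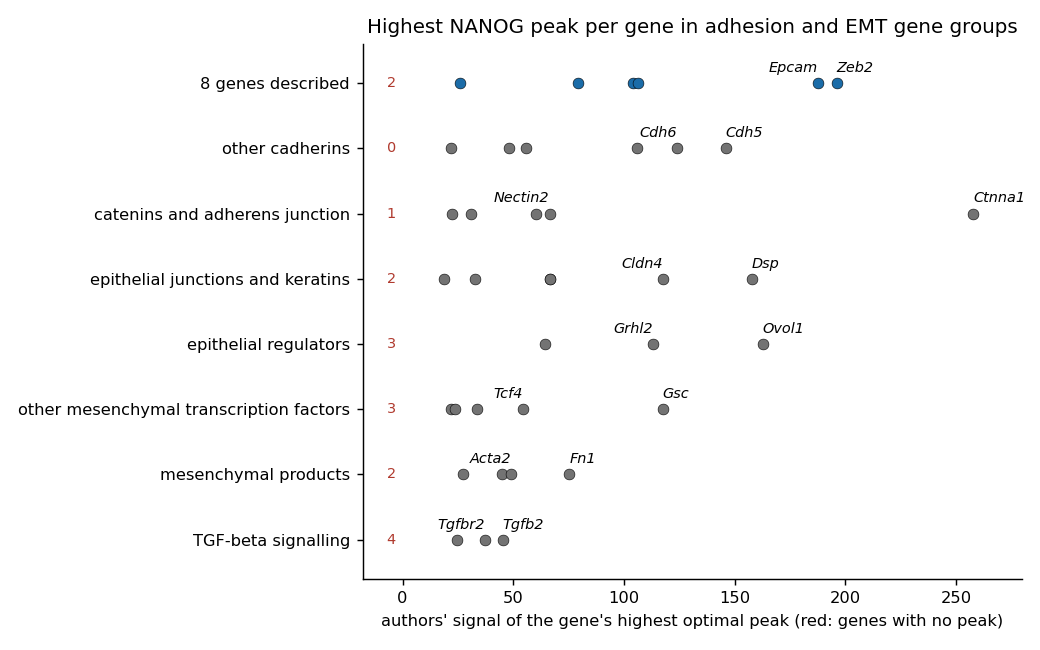
Authors' signal of the highest optimal peak per gene (x axis) for the 8 genes described and for 7 groups of other adhesion and EMT genes (y axis), with the 2 highest of each group named and the number of genes without a peak in red at the left. Ctnna1 (257.7) was above Zeb2 (196.1) and Epcam (187.8), and the TGF-beta group had no peak above 45.2.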

How the data were processed

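The deposited files were peak lists of 2 NANOG replicates, on mm9 and on mm10. Per the deposited file descriptions, the authors made relaxed mm10 lists as input to IDR (irreproducible discovery rate) for each replicate and the pool, and from these an optimal and a conservative thresholded set. The deposited mm10 values are a signal, a −log10 q-value, an integer score and a summit offset. Broad peaks on mm9, deposited per replicate and for the series, carry an enrichment ratio, a −log10 p-value and an untransformed q-value. The aligner, the caller and the IDR cutoff are not stated in labels or headers. A control experiment named in the labels was not used here, nor were scores.

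Genes and sequences on mm10 came from RefSeq (GRCm38.p6), with strands from its promoter table or, by symbol, from an mm9 annotation; of 14613 genes in both tables, 14573 had the same strand, and 21489 of 21887 genes got one. Each gene was given 1 TSS, at its 5′ limit. mm9 centres are midpoints, and builds were never mixed. Python 3.11.15, NumPy 2.4.6, pandas 2.3.3 and matplotlib 3.10.9 were used, and gene assignment was tested on simulated data. No test was run: 1 group has no contrast, and the genes and lists were chosen with earlier results of these data known. Described were all peaks of the 8 genes and up to 3 genes per group of the list with the highest signal; other genes appear where their TSS was nearer to a peak, except for 1 neighbouring gene that is not reported here, and Rnf114, as the gene body that holds one, was added after its values were seen.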

Additional observations from a re-analysis of the deposited data

How the results depend on the processing

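Of the 8 genes, 5 or 6 had a peak under each of the 9 alternatives run, while the share of all genes with one ran from 25.4% within 10 kb to 67.2% within 100 kb, where 6 of 8 (75%) is near it. The number of summits, 20, was 10 with optimal peaks above the median signal only, where Zeb1 had none, and 12 without gene bodies, where Cdh2 had none. It was 15 with the conservative set, 16 within 10 kb, by nearest TSS and with mm9 series-level peaks, and 23 within 100 kb. Epcam had none within 10 kb and by nearest TSS, Zeb1 none on mm9, and Zeb2 had 2 there. Genes of the 47 with a peak, 32, were 21 with peaks above the median signal (44.7%, against 30.8% of all genes). They were 22 on mm9 (46.8%, against 45.2%) and 39 within 100 kb (83.0%, against 67.2%). With the conservative set (33.7% of all genes) and within 10 kb (25.4%) they were 22, or 46.8%. By nearest TSS they were 25 (53.2%, against 27.9%), and without gene bodies 28 (59.6%, against 44.8%). Leaving out a replicate, with the top regions of the other in place of the optimal set, gave 18 to 19 summits and 6 genes with a peak. Of the list, 33 had one without replicate 1 (70.2%, against 54.0% of all genes) and 32 without replicate 2 (68.1%, against 48.5%). Without replicate 1, Cdh2 had 2 summits and Zeb1 had 2. Peaks supported by both replicates, 17, were 11 with the top regions only, 16 with summits within 100 bp and 15 of 15 with the conservative set. The conservative set was derived from these same lists, so that last count is built in and is no separate support. Peaks holding any word of NANOG, SOX, OCT, ESRRB or KLF type were 13 of 16 (86.6% of all mm9 peaks), 8 within 50 bp of the centre (33.4%) and 12 in the central 300 bp (63.3%), a width added after seeing the data. No paired analysis was possible because there was 1 group. With depth unknown, a gene without a peak is not shown to lack NANOG.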

Other observations

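Further optimal peaks lay beyond the windows. Upstream of Cdh1, peaks at 95.5 kb (signal 55.8) and 87.2 kb (signal 43.3) lay nearest to Cdh3, the P-cadherin gene next to it. The first was in the conservative set, and the second was in no region of the relaxed list of replicate 2. Zeb2 had a peak 91.3 kb upstream (signal 41.1), which was absent from the relaxed list of replicate 2, and others past the end of the gene, 137.1 kb (signal 22.3) and 147.0 kb (signal 65.6) downstream of its TSS, of which the last was in the conservative set. A peak of signal 160.1, with rank 970 in replicate 1 and 935 in replicate 2, lay 164.1 kb upstream of Epcam and nearest to Calm2. Upstream of Snai1, a peak of signal 151.8 lay inside B4galt5 at 211.4 kb. Calm2 and B4galt5 were chosen after their values were seen.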
